A study of Mus musculus with 9 samples.

Results

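The genes Egr1, Egr2 and Egr3, which encode the early growth response (EGR) transcription factors, and Nab1 and Nab2, which encode the NGFI-A binding corepressors that dock onto them, were followed through the activation of mouse CD4+ T cells at 2 temperatures. These 5 genes were fixed by name, out of 55573 gene identifiers counted, and all 5 were among the 13328 genes with enough counts to be tested. The cells came from the spleen of B6 mice and fall into 3 groups of 3 RNA sequencing libraries each. The study's design has CD4+ T cells isolated first, by a method it does not name, whereas the growth protocol speaks of spleen cells put into culture. The first group was stimulated at 39 °C, a febrile temperature, and the second at 37 °C. In both, plate-bound anti-CD3 and anti-CD28, antibodies that trigger the antigen receptor complex and its costimulator, acted for 3 hours. The third group, the naive cells, was left unactivated, and the labels do not say whether it spent the same time in medium, so culture and activation cannot be told apart in comparisons with it. The labels name no genotype, sex or age, nor whether replicate libraries trace back to different animals or dishes. P-values therefore measure only the spread between these samples, which may be technical.

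EGR factors are zinc finger proteins of the immediate early class: their genes are switched on without new protein synthesis when a T cell receptor signal runs through Ras and ERK to the serum response factor SRF and its ETS partners, and through calcium to NFAT. EGR1 is known as an activator of early cytokine genes, whereas EGR2 and EGR3 are known in T cells for restraining activation and for programmes of anergy and tolerance. NAB1 and NAB2 bind a short inhibitory domain in EGR1, EGR2 and EGR3 and recruit repressive chromatin complexes such as NuRD, and Nab2 is itself known as an EGR target, which closes a feedback loop. EGR4, the remaining family protein, is known chiefly from neurons.

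In GRCm38, Egr2 (ENSMUSG00000037868) lies on chromosome 10 at 67535475 to 67542188 on the plus strand and Egr3 (ENSMUSG00000033730) on chromosome 14 at 70077203 to 70082614, also on the plus strand. Nab1 (ENSMUSG00000002881) lies on chromosome 1 at 52457294 to 52500679 and Nab2 (ENSMUSG00000025402) on chromosome 10 at 127660918 to 127668568, both on the minus strand. Merged exons span 3398 bases in Egr2, 4406 in Egr3, 4100 in Nab1 and 2941 in Nab2. Nab2 overlaps 3 genes on the opposite strand: it shares 40 exonic bases with Stat6, 151 with Nemp1 and 1050, or 35.7% of its exon length, with the antisense gene Gm16229. Strand was not stated for the counting, so reads of these stretches cannot be told apart from those of Nab2. Gm16229 itself was given 2, 0 and 1 counts in the 39 °C libraries and none in the 37 °C and naive libraries.

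Promoter windows show where the letters of known upstream and feedback factors stand, from 250 bases before to 50 bases after a start site (RefSeq, GRCm38.p6, each printed 5′ to 3′ on the gene's own strand, with matches in capitals). They are given for the strongly induced Egr2 and for the 2 corepressor genes, whose responses differed. For Egr3 no window was available. The letters searched on both strands were GCGNGGGCG for EGR factors, the CArG box bound by SRF, TGACGTCA for the cyclic AMP response element and GGAAA for the NFAT core, the last not capitalised.
Egr2, chr10:67537619-67537918, plus strand: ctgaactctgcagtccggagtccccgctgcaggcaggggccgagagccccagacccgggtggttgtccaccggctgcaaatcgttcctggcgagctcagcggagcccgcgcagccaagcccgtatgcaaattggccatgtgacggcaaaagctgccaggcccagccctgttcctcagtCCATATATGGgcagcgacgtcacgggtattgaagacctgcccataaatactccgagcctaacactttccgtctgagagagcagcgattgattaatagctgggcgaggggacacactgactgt
Nab2, chr10:127666654-127666953, minus strand: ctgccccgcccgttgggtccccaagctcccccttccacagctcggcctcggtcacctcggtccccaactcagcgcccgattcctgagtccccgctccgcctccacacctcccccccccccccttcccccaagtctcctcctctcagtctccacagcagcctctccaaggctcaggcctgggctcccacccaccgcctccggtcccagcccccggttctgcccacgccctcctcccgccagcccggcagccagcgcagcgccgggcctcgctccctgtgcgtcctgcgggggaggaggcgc
Nab1, chr1:52500399-52500698, minus strand: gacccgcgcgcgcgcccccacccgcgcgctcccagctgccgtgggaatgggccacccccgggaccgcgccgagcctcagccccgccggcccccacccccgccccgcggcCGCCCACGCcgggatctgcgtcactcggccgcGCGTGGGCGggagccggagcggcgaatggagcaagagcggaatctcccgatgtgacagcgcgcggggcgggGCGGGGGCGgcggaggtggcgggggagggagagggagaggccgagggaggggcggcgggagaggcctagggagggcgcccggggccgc
The Egr2 window held a CArG box starting 72 bases before the start site and, apart from it, 1 NFAT core. The CArG box stood in 4 of the 5 listed Egr2 windows, 3 of which overlap and share 1 box, and in 1.63% of 32851 windows of this length over all genes. The Nab1 window held 3 non-overlapping EGR matches, against 5.55% of all windows with any. Its bases were 81.7% G or C, and the share over all windows is not matched for base content. The Nab2 window held none of the 4 motifs. It lies inside the gene and does not reach the gene's 5′ end at 127668568. Bases just after its start site were found in 1 of 4 Nab2 transcripts. No window listed for Egr2, Nab1 or Nab2 held the full cyclic AMP response element, which stood in 1.79% of all windows. The NFAT core stood in 61.3% of all windows. A match is a description of letters, and its absence from a window of 300 bases says nothing about the factor.

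The question of the first comparison is what 3 hours of stimulation did to these genes at either temperature. All 5 rose at 39 °C and all 5 at 37 °C against naive cells, the 3 EGR genes by 12.2-fold or more, Nab2 by 5.78-fold and 5.24-fold and Nab1 by 1.39-fold and 1.32-fold. Levels are CPM, read counts relative to the library size scaled by TMM, and log2 fold changes carry the standard error of 1 edgeR fit of all 9 libraries. Among all genes tested, 29.2% were called higher at 39 °C than in naive cells and 30.9% at 37 °C, at an adjusted p under 0.05. Every library at 39 °C lay above every naive library for 30.8% of genes, and every library at 37 °C for 32.7%. These comparisons share the naive libraries, so their values are set side by side only.

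**Figure D1:**
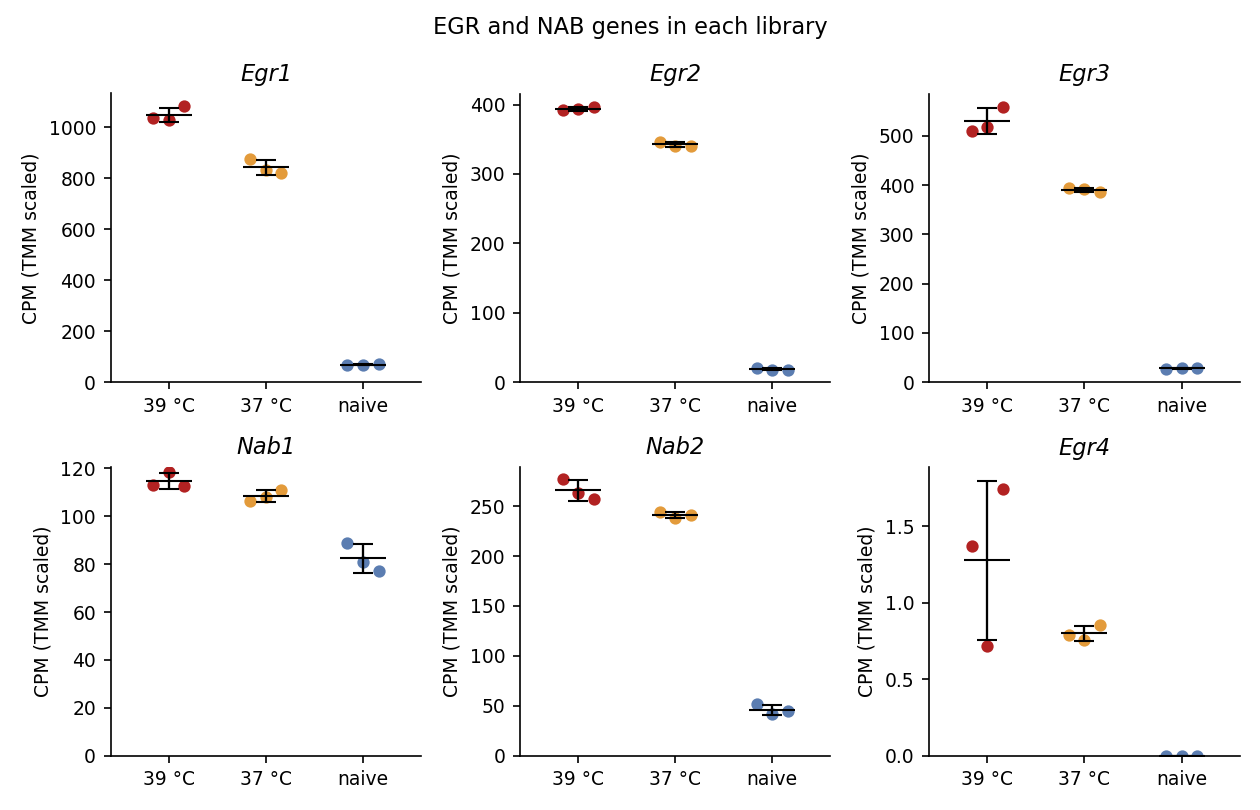
Level of each gene in CPM (TMM scaled, linear axis from 0) in the 3 libraries of each group, with points for libraries and bars for the mean ± SD. For each of the 5 members every 39 °C library lies above every 37 °C library, and every activated library above every naive one; Egr4, shown for the rest of the family, is at 0 in naive cells.

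Egr1, the family's activator of early cytokine genes, was the most abundant of the 5 in activated cells. In GRCm38 the gene (ENSMUSG00000038418) lies on chromosome 18 at 34859823 to 34864984 on the plus strand, with 4484 exonic bases. It stood at 1035, 1031 and 1083 CPM in the 39 °C libraries, 875, 831 and 822 CPM in the 37 °C libraries and 68.4, 68.4 and 70.3 CPM in the naive libraries. Both activated groups lay far above the naive group, in which the gene was already well detected, with at least 976 counts per library. The log2 fold change was 3.93 ± 0.074 at 39 °C (adjusted p = 6.58e-12, edgeR) and 3.61 ± 0.073 at 37 °C (adjusted p = 6.44e-12, edgeR).

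Egr2, which is needed for the tolerance of T cells and for myelination by Schwann cells, had the largest fold changes of the 5. It was at 391.6, 392.9 and 396.9 CPM at 39 °C, 346, 341 and 340 CPM at 37 °C and 20.2, 17.7 and 17.9 CPM in naive cells. The activated libraries of a group differed by a few CPM only, and no groups overlapped. The rise was 4.41 ± 0.077 on the log2 scale at 39 °C, or 21.2-fold, and 4.20 ± 0.076 at 37 °C, or 18.4-fold. By p-value Egr2 was in place 1 of the 13328 genes at 39 °C against naive and in place 2 at 37 °C against naive.

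Egr3, a close relative that acts with Egr2 in T cells, stood at 511, 519 and 560 CPM at 39 °C, 393, 393 and 385 CPM at 37 °C and 26.5, 28.9 and 28.2 CPM in naive cells. The 39 °C libraries were spread more widely than the 37 °C libraries, with an SD of 25.98 against 4.52 CPM. The log2 fold change was 4.25 ± 0.076 at 39 °C and 3.81 ± 0.075 at 37 °C against naive cells.

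Egr4 was detected in activated cells only at a trace. It had 22, 9 and 25 counts at 39 °C, 11, 11 and 11 counts at 37 °C and 0 counts in each naive library. With 3 counts summed over the naive libraries as the detection limit, it was 20.2-fold above that limit at 39 °C and 12.4-fold at 37 °C. These values take the activated counts as they stand and leave out their counting error and the spread between libraries.

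The corepressor genes did not move by like amounts. Nab2, the inducible corepressor, stood at 277, 263 and 257 CPM at 39 °C, 244, 238 and 241 CPM at 37 °C and 51.4, 41.7 and 44.9 CPM in naive cells. The rise was 2.53 ± 0.082 at 39 °C and 2.39 ± 0.081 at 37 °C on the log2 scale, 5.78-fold and 5.24-fold. Nab1, known as the more evenly expressed corepressor, stood at 113, 118 and 113 CPM at 39 °C, 106, 108 and 111 CPM at 37 °C and 89.0, 81.0 and 77.2 CPM in naive cells. Its rise of 0.48 ± 0.068 at 39 °C (adjusted p = 7.11e-05, edgeR) and 0.40 ± 0.068 at 37 °C (adjusted p = 0.000294, edgeR) was small, though again no groups overlapped. With upper-quartile scaling, which moved the median of all genes to -0.13 at 39 °C and -0.14 at 37 °C, it was 0.35 at 39 °C and 0.26 at 37 °C and still called.

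**Figure D2:**
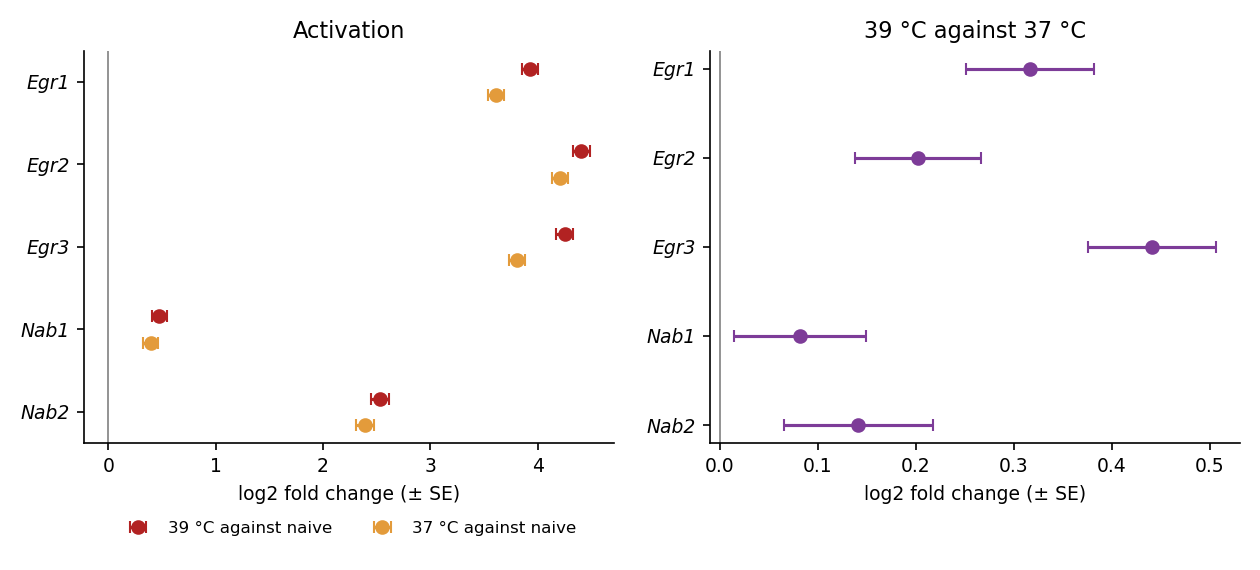
Log2 fold changes with standard errors for the 5 genes, at left for activation at 39 °C and at 37 °C against naive cells and at right for 39 °C against 37 °C, on a narrower axis. Egr2 is farthest right at left (4.41 and 4.20) and Egr3 at right (0.44), while Nab1 is nearest to 0 in both panels.

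Markers of other spleen cells moved with the same contrasts. Together, 10 markers of B cells reached 246 to 260 CPM at 39 °C, 233 to 242 CPM at 37 °C and 752 to 901 CPM in naive libraries, and all 10 fell in both comparisons with naive cells. The 11 myeloid markers summed to 10.3 to 13.7 CPM at 39 °C, 10.2 to 13.0 CPM at 37 °C and 19.8 to 27.7 CPM in naive libraries, with Cd14 and Csf3r at 0 in the 39 °C group and Csf3r and S100a9 at 0 in the 37 °C group. Erythroid and platelet markers summed to 2.94 to 4.18 CPM at 39 °C, 2.79 to 3.22 CPM at 37 °C and 135 to 225 CPM in naive libraries. Markers of CD8 T cells summed to 12.6 to 14.6, 13.5 to 15.1 and 25.8 to 36.1 CPM in these groups, and those of NK cells to 0.81 to 1.81, 1.01 to 1.65 and 7.33 to 10.04 CPM. The 10 CD4 T cell markers, among them Cd4 and the CD3 genes, were all detected and summed to 5966 to 6475 CPM at 39 °C, 5684 to 6011 CPM at 37 °C and 5375 to 7127 CPM in naive libraries. Against naive cells 1 of these 10 rose and 4 fell at 39 °C, with a median log2 fold change of -0.14, and 2 rose and 5 fell at 37 °C, with a median of -0.25. For these marker counts, the shares over all genes tested were 29.2% higher and 29.8% lower at 39 °C. At 37 °C they were 30.9% higher and 31.8% lower. The part of the other cells in the EGR and NAB levels was not tested. In bulk RNA, fewer cells of a type and less RNA per cell cannot be told apart. Total counts ran from 12647692 to 17605549 per library.

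Divided by exon length, the levels can be set against each other, and the order of the family changed with activation. In naive cells Nab1 led with 20.1 ± 1.47 CPM per kb, followed by Nab2 with 15.6 ± 1.67 and Egr1 with 15.4 ± 0.245 (SD, n = 3), and the ranges of Nab2 and Egr1 overlapped. Egr3 (6.32 ± 0.284 CPM per kb) and Egr2 (5.47 ± 0.416 CPM per kb) came below. At 37 °C the order was Egr1 with 188 ± 6.30, Egr2 with 101 ± 1.05, Egr3 with 88.6 ± 1.03, Nab2 with 82.0 ± 0.939 and Nab1 with 26.4 ± 0.583 CPM per kb, each gene above the next in every library. At 39 °C Egr1 stood at 234 ± 6.37, Egr3 at 120 ± 5.90, Egr2 at 116 ± 0.804, Nab2 at 90.4 ± 3.55 and Nab1 at 28.0 ± 0.795 CPM per kb, and here the ranges of Egr3 and Egr2 overlapped. The place of Nab2 depends on whether reads of the 1241 exonic bases it shares with opposite-strand genes were counted. Over the remaining 1700 bases, a length chosen after its values were seen, Nab2 would stand at 156 ± 6.15 CPM per kb at 39 °C, 142 ± 1.62 at 37 °C and 27.1 ± 2.89 in naive cells (SD, n = 3). That is above Egr2 and Egr3 in the activated groups and above Nab1 in naive cells.

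Ratios within a library need no scaling between libraries. The 4 EGR genes together amounted to 3.98 ± 0.224 times the sum of Nab1 and Nab2 per kb at 39 °C, 3.48 ± 0.0749 times at 37 °C and 0.764 ± 0.0602 times in naive cells (SD, n = 3). Nab2 was at 3.23 ± 0.171 times Nab1 per kb at 39 °C, 3.10 ± 0.0872 times at 37 °C and 0.778 ± 0.0521 times in naive cells. With the shared bases of Nab2 left out of its length these ratios were 5.59 ± 0.296 at 39 °C, 5.37 ± 0.151 at 37 °C and 1.35 ± 0.0901 in naive cells, so which corepressor transcript was the more abundant in naive cells is uncertain. The ratio of the EGR to the NAB sum was then 2.56 ± 0.150 at 39 °C, 2.24 ± 0.0431 at 37 °C and 0.579 ± 0.0479 in naive cells. Differences between groups in the log2 ratio of Nab2 to Nab1 do not depend on the length used. The log2 ratio of Nab2 to Nab1 was higher than in naive cells by 2.06 at 39 °C and by 2.00 at 37 °C, in each case without overlap and with p = 0.1 in a 2-sided exact permutation test, the smallest that 3 against 3 libraries can give. Between the temperatures it differed by 0.059, against an SD between libraries of 0.076 at 39 °C and 0.040 at 37 °C (exact permutation p = 0.4). Egr1 made up 49.7 ± 0.158% of EGR transcripts at 39 °C, 49.8 ± 0.611% at 37 °C and 56.6 ± 0.644% in naive cells. The lower share in activated cells was without overlap (exact permutation p = 0.1 for both comparisons with naive cells), and between the temperatures the exact permutation p was 1. Over the 8 permutation tests made, p = 0.1 became 0.133 with Benjamini-Hochberg adjustment, so none of these exact tests can pass.

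**Figure D3:**
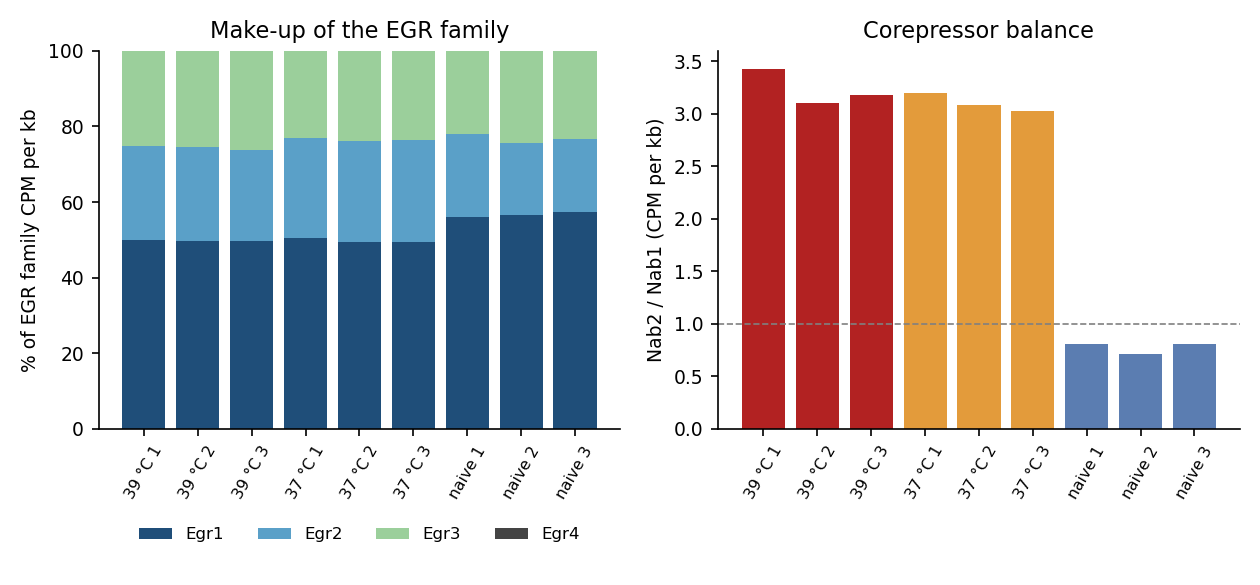
For each library, at left the percent of the summed EGR family level per kb that each of Egr1, Egr2, Egr3 and Egr4 took, and at right the ratio of Nab2 to Nab1 per kb, with a dashed line at 1. Egr1 takes 49.7% at 39 °C, 49.8% at 37 °C and 56.6% in naive cells on average, and the Nab2 to Nab1 bars, drawn with the full exon length of Nab2, lie below 1 in the naive libraries only (1.35 on average without its shared bases).

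The second comparison sets stimulation under fever-like warmth against stimulation at body temperature. Egr3 rose at 39 °C against 37 °C, and it was the 1 member of the 5 that edgeR called. The fitted value was 0.44 ± 0.065 on the log2 scale, or 35.7% higher (adjusted p = 0.00736, edgeR), and the lowest 39 °C library stood at 1.30 times the highest 37 °C library. Among all genes tested 0.758% were called, 0.135% higher and 0.623% lower, and Egr3 held place 8 of the 18 higher genes by adjusted p. The call was lost when 37 °C library 1, 2 or 3 or 39 °C library 2 or 3 was left out, with values of 0.40 to 0.46 and adjusted p of 0.0522 to 0.0677 by edgeR.

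Egr1 stood at 0.32 ± 0.065, or 24.5% higher, with an adjusted p of 0.0536 by edgeR, just above the threshold of 0.05. DESeq2 called it, at 0.32 with an adjusted p of 3.68e-05, and called 151 of 14249 genes in all. Egr2 stood at 0.20 ± 0.064, or 1.15-fold (adjusted p = 0.315 by edgeR and 0.101 by DESeq2). Fitted on the 6 activated libraries alone, Egr1 (adjusted p = 0.00243, edgeR) and Egr2 (adjusted p = 0.0250, edgeR) were called too. That fit called more of all genes than the main fit, 401 of 12751, with 136 higher and 265 lower. Nab2 stood at 0.14 ± 0.076 (adjusted p = 0.723, edgeR) and Nab1 at 0.082 ± 0.067 (adjusted p = 0.854, edgeR). Egr4, at no more than 1.74 CPM, had a fitted value of 0.69 ± 0.37 (adjusted p = 0.726, edgeR), and its groups overlapped.

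In all 5 members every 39 °C library lay above every 37 °C library, which held for 10.7% of all genes tested. For Nab1 the lowest 39 °C library exceeded the highest 37 °C library by a factor of 1.02 only. The median log2 fold change of all genes was 0.0041, close to 0. All 5 had values above 0 in each of the 18 alternative settings. Markers of B cells summed to slightly more at 39 °C (246 to 260 CPM) than at 37 °C (233 to 242 CPM), and none of the 10 was called between the temperatures by edgeR or DESeq2, with 1 at an unadjusted p under 0.05, against 7.96% of all genes. Their part in the EGR values was not tested.

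**Figure D4:**
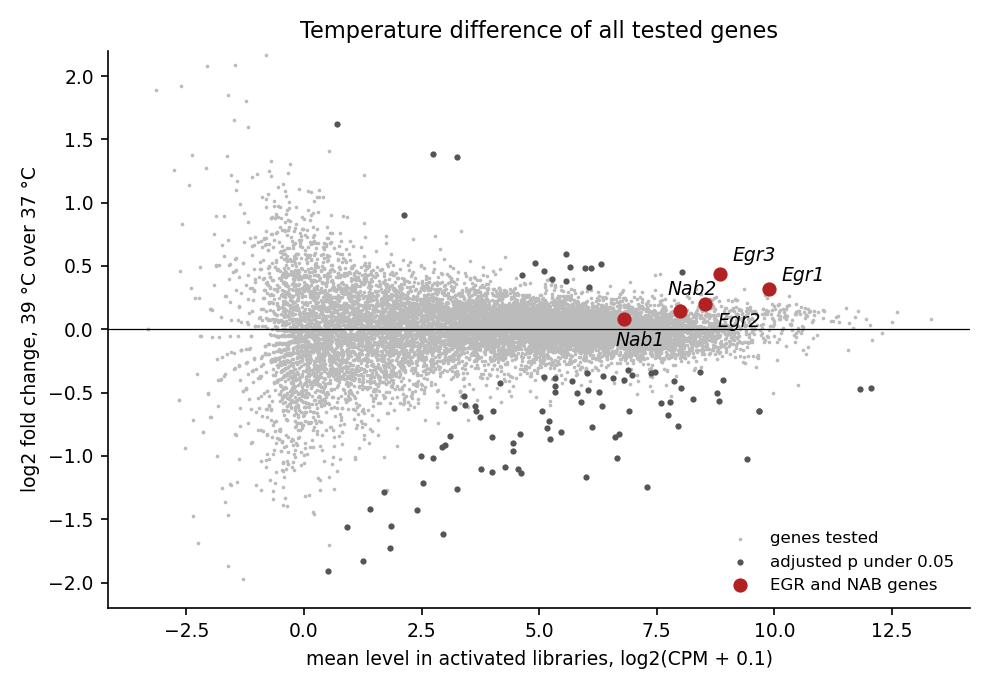
Log2 fold change of 39 °C over 37 °C against the mean level of the 6 activated libraries for all 13328 tested genes, with called genes in dark grey and the 5 members in red; 11 genes lie beyond the axis limit of 2.2. Ordered from the largest rise to the largest fall, Egr3 (0.44) is in place 39 of the 9456 genes with at least 5 CPM. In this order Egr1 (0.32) is in place 165 and Nab1 (0.082) in place 2580.

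The members were compared with each other within libraries for the temperature difference, a comparison chosen after their values were seen. The log2 ratio of Egr3 to Egr2 per kb was 0.052 ± 0.060 at 39 °C and -0.19 ± 0.013 at 37 °C (SD, n = 3), a difference of 0.24 without overlap (exact permutation p = 0.1, 2-sided, the smallest possible). Per kb, Egr2 thus led Egr3 in every 37 °C library and Egr3 led Egr2 in every 39 °C library. In 39 °C library 1 the lead was only 0.0092 on the log2 scale. This order depends on the exon lengths used. Not divided by length, Egr3 averaged 530 CPM against 394 for Egr2 at 39 °C and 390 against 342 at 37 °C. The difference of 0.24 does not depend on the lengths. The log2 ratio of Egr3 to Nab2 was 0.41 ± 0.12 at 39 °C and 0.11 ± 0.023 at 37 °C, a difference of 0.30 (exact permutation p = 0.1) that does not depend on the length used for Nab2.

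Genes known as targets of EGR factors in lymphocytes were taken as a list of 25, of which 24 could be tested. The list was chosen with earlier results of these data known, and whether EGR factors changed its genes here was not tested. At 39 °C 14 rose and 6 fell against naive cells, with a median log2 fold change of 0.87, and at 37 °C 14 rose and 6 fell, with a median of 1.11. Over all genes tested the median was -0.0027 at 39 °C and -0.0025 at 37 °C. The shares of all genes were 29.2% called higher and 29.8% lower at 39 °C, and 30.9% higher and 31.8% lower at 37 °C. Cdkn1a, a cell cycle inhibitor, was at 62.3 ± 2.70 CPM at 39 °C, 65.7 ± 1.92 CPM at 37 °C and 1.38 ± 0.176 CPM in naive cells. The cytokine gene Tnf averaged 318 CPM at 39 °C, 268 CPM at 37 °C and 16.7 CPM in naive cells, and its log2 fold change at 39 °C was 4.25 ± 0.090. Tnfrsf9, which encodes the costimulatory receptor 4-1BB and is a known EGR2 target in anergic cells, was at 234 ± 9.61 CPM at 39 °C, 253 ± 16.2 CPM at 37 °C and 19.99 ± 1.20 CPM in naive cells. These 3 were the called genes with the smallest adjusted p in both comparisons.

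Other members of the target list, named after their values were seen, did not all go up. Socs3, a feedback inhibitor of cytokine signalling, had log2 fold changes of -2.55 ± 0.078 at 39 °C and -2.42 ± 0.077 at 37 °C, both called. Dgka, the diacylglycerol kinase gene of the anergy programme, fell by 0.74 ± 0.078 at 39 °C and by 0.82 ± 0.078 at 37 °C. Cblb, a ubiquitin ligase gene of the same programme, rose by 0.86 ± 0.080 at 39 °C and by 1.03 ± 0.080 at 37 °C. The ligase gene Itch stood at -0.050 ± 0.075 at 39 °C and -0.012 ± 0.075 at 37 °C and was not called. Between 39 °C and 37 °C none of the 24 was called by edgeR or by DESeq2, with 4 at an unadjusted p under 0.05 against 7.96% of all genes, and the list's median was 0.0024.

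**Figure D5:**
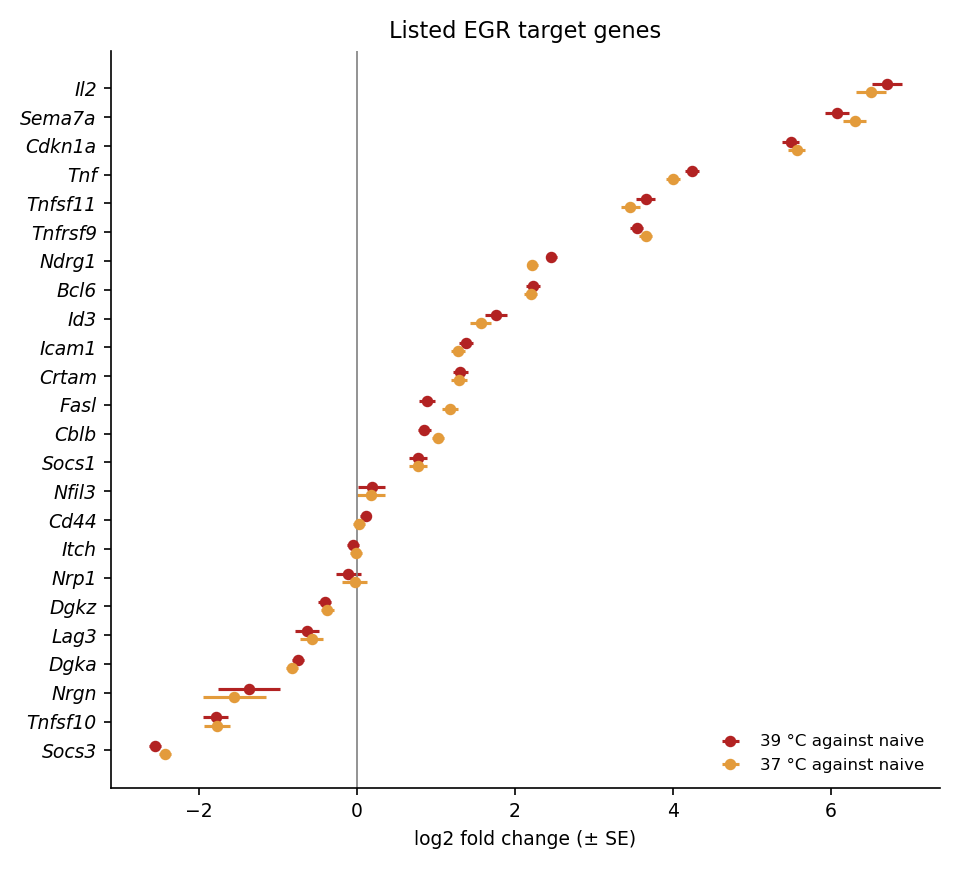
Log2 fold changes with standard errors of the 24 tested genes of the EGR target list for activation at 39 °C and at 37 °C against naive cells, ordered by the 39 °C value. Il2, Sema7a and Cdkn1a lie highest and Socs3 lowest, and 14 genes rose and 6 fell in either comparison. The shares of all tested genes were 29.2% higher and 29.8% lower at 39 °C, and 30.9% higher and 31.8% lower at 37 °C.

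Of 14 listed SRF and ERK pathway genes 4 rose and 5 fell at 39 °C and 4 rose and 5 fell at 37 °C against naive cells, with medians of 0.061 at 39 °C and 0.057 at 37 °C. These counts lie near the shares of all genes tested, 29.2% higher and 29.8% lower at 39 °C and 30.9% higher and 31.8% lower at 37 °C. With upper-quartile scaling these medians turned to -0.067 and -0.077. The kinase gene Mapk3, which encodes ERK1, fell by 0.67 ± 0.078 at 39 °C and by 0.86 ± 0.079 at 37 °C. The ternary complex factor gene Elk3 fell by 0.56 ± 0.073 and by 0.67 ± 0.074, and Rps6ka1, a kinase gene downstream of ERK, fell by 0.66 ± 0.072 and by 0.57 ± 0.072. Srf itself, named after its value was seen, rose by 0.47 ± 0.11 in both comparisons. Between the temperatures 0 of the 14 were called by edgeR and 0 by DESeq2, with 1 at an unadjusted p under 0.05, against 7.96% of all genes.

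The NuRD complex, a chromatin remodelling and deacetylase complex whose CHD4 subunit binds NAB2, was represented by 13 genes. At 39 °C 7 rose and 2 fell against naive cells, with a median of 0.18, and at 37 °C 8 rose and 3 fell, with a median of 0.34. Of all genes tested 29.2% were higher and 29.8% lower at 39 °C, and 30.9% higher and 31.8% lower at 37 °C. With upper-quartile scaling 6 rose and 4 fell in either comparison. Chd4 averaged 910 ± 53.0 CPM in 39 °C libraries, 973 ± 33.3 CPM in 37 °C libraries and 489 ± 100.4 CPM in naive libraries, and rose in both comparisons. The histone chaperone gene Rbbp7 rose by 1.06 ± 0.084 at 39 °C and by 1.08 ± 0.084 at 37 °C, while Mbd2, a methyl-CpG binding subunit gene, fell by 0.75 ± 0.11 and by 0.83 ± 0.11. Between the temperatures edgeR and DESeq2 each called 0 of the 13, with 1 at an unadjusted p under 0.05, against 7.96% of all genes.

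The genes with the pattern most like each member were taken by Pearson's r of log2 CPM over the 9 libraries. Candidates were 9044 tested genes whose mean reached 5 CPM, without genes named Gm plus digits or ending in Rik. The split between activated and naive libraries, which share their treatment, dominates these values, so that 323 genes passed r = 0.99 with Egr1, and they are a description only. Egr1 and Egr3 were each other's nearest gene (r = 0.9996), followed for both by Clic4, a chloride channel family gene, and then by Il2ra for Egr1 and Ndrg1 for Egr3. Nearest to Egr2 were Il2ra, the high-affinity interleukin 2 receptor chain (r = 0.9997), Chac1 and Tnf. Nearest to Nab2 were Tnf (r = 0.9996), the ribosome assembly GTPase gene Gtpbp4 and Itm2a. Nab1 stood apart, with 5 genes above 0.99, led by Gpr171 (r = 0.994), Wdr77 and Sypl. None of these other genes was called between 39 °C and 37 °C by edgeR except Egr3, with Clic4 at 0.22 (adjusted p = 0.187) and Ndrg1 at 0.24 (adjusted p = 0.186).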

How the data were processed

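The authors deposited 1 table of raw read counts per gene for each of the 9 libraries, not normalised, with totals of 12647692 to 17605549. FastQC, HISAT2, HTSeq and DESeq2, with the build GRCm38, appear in the submitters' processing notes. Which of them made the tables, with which gene models and whether strand was used, is not given in the sources used here. Libraries were made from TRIzol extracts with TruSeq reagents, per the labels' protocols. Of 55573 identifiers 55480 matched GENCODE M21 (GRCm38), the source of symbols, coordinates and exon lengths.

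Low genes were removed with filterByExpr (count 10, total 15). The rest were scaled by TMM and fitted with edgeR 4.0.16 in R 4.3.3 by 2-sided quasi-likelihood F tests in 1 fit of all 9 libraries. P-values were adjusted by Benjamini-Hochberg over 13328 genes and called under 0.05. A standard error is the absolute log2 fold change over the square root of F. CPM values use the TMM library sizes. The fit was also run on simulated counts with a common dispersion for all genes and no activation difference. That setting is simpler than these data, and no result here relies on it. The members and lists were chosen with earlier results of these data known. Named genes were the 5 members and Egr4, up to 3 called genes per pathway list and comparison by adjusted p, and the 3 genes nearest in pattern to each member. One gene that this rule names is not reported here. Mkl1 and Mkl2 of the list were matched as Mrtfa and Mrtfb. Promoter windows were matched by symbol for Egr2, Nab1 and Nab2. No window was available for Egr3, and none was used for Egr1. Alternatives were RLE, upper-quartile and library size scaling, other count filters, DESeq2 1.42.0, the 6 libraries of a comparison alone, a replicate block, a threshold of 0.01 and leaving out each library. Read counts without molecular identifiers are not independent molecules.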

Additional observations from a re-analysis of the deposited data

Results flagged for a closer look

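The activation response of Egr3 differed between the temperatures: against naive cells it was 4.25 at 39 °C and 3.81 at 37 °C on the log2 scale. The difference of 0.44 ± 0.065 had an adjusted p of 0.00736 by edgeR. Both responses share the naive libraries, so this is the same test as 39 °C against 37 °C above, not a second one. Leaving out any 1 of 5 of the 6 activated libraries took this adjusted p to 0.0522 to 0.0677.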

How the results depend on the processing

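Against naive cells all 5 members kept their direction and their call in each of 18 alternative settings at both temperatures. Between 39 °C and 37 °C the value for Egr3 ran from 0.40 to 0.46 when 1 library was left out. Egr1, at 0.32, was called with upper-quartile scaling (0.32), DESeq2 (0.32) or the 6 libraries alone (0.32), and without naive library 1 or 2, with values of 0.29 to 0.34 over all libraries left out. Egr2, at 0.20, was called with the 6 libraries alone (0.20) and without naive library 1, with 0.20 to 0.21 over all libraries left out. Naive libraries enter this comparison only through filtering, scaling and the shared spread. Nab1 and Nab2 were not called in any setting. The count of genes called between the temperatures, 101 of 13328, was 176 of 29586 with any count kept and 401 of 12751 with the 6 libraries alone. It was 45 at a threshold of 0.01, 151 of 14249 with DESeq2 and 37 to 291 with 1 library left out. Without naive library 1 it was 291 of 13593, and without naive library 2 it was 152 of 13583. The difference in the Egr1 share of -0.040 percentage points turned sign without 39 °C library 2 or 37 °C library 1, within a range of -0.22 to 0.31. Upper-quartile scaling split the calls at 39 °C against naive cells into 3092 higher and 4914 lower, against 3887 and 3968. Leaving the shared bases of Nab2 out of its length, an alternative chosen after seeing the data, left the differences in the Nab2 to Nab1 ratio as they were and moved its levels. Pairing of the libraries by the replicate numbers of the titles was not evident. The correlations of deviations between same-numbered libraries ran from -0.17 to 0.33, and not every library correlated best with its own number. With 3 libraries per group these correlations cannot exclude pairing. With the replicate block 97 genes were called between the temperatures, and Egr3 stood at 0.44 (adjusted p = 0.0125, edgeR). The block changed no call of a member. The depth of each library gave at least 252 counts for every member, while Egr4 had at most 25.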
